A study of Mus musculus with 12 samples.

Results

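Class 3 semaphorins and their receptors were followed through 8 genes of the deposited table, which lists 22915 genes. The set held the secreted ligands Sema3a, Sema3c and Sema3d, the co-receptors Nrp1 and Nrp2, and the plexin receptors Plxna2, Plxna4 and Plxnd1. They were picked by name with earlier results of these libraries known, Sema3c because it falls with all 3 cytokines, so that their changes against PBS are a description and carry no test here. Differences between the cytokines were not named as a reason for that choice and were tested. They rest on the same libraries, whose earlier results were known, so that their p-values are not independent of the choice. RNA came from primary cardiomyocytes of male C57/Bl6 mice 12 weeks of age, cultured for 24 h in normoxia with PBS or with 1 of 3 cytokines, namely leukemia inhibitory factor of the mouse (mLIF), oncostatin M of the mouse (mOSM) and a human-like oncostatin M (hlOSM). The sample descriptions give a dose of 25 ng/mL for each cytokine, while the paper's methods state a lower concentration. In these cells mLIF signals through LIFR, mOSM through OSMR, and hlOSM, a murine protein carrying the human AB loop, through both. Each of the 4 conditions had 3 libraries, 12 in all. Separate cultures or animals are not stated for them, so that errors and p-values cover the spread between these libraries, which may be technical. Values are normalized counts, rounded by the authors to whole numbers and not divided by gene length. They summed to between 2745748 and 2911891 per library, and the read depth behind a single value is unknown.

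Semaphorins are guidance cues that steer growing axons, vessels and migrating cells. Secreted class 3 members generally bind a neuropilin, which has hardly any signaling capacity of its own, and signal through the plexin paired with it. Plexins act on small GTPases and loosen integrin adhesion and the actin cytoskeleton. In the developing heart, Sema3c guides neural crest cells into the outflow tract and Plxnd1 is needed for outflow tract and vessel patterning, while Sema3a restrains the ingrowth of sympathetic nerves. Neuropilins also bind vascular endothelial growth factors, so that both ligand families use the same co-receptors.

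All 3 ligand genes lie on the plus strand of chromosome 5 of mm10, Sema3d (ENSMUSG00000040254) at 12383385 to 12588948, Sema3a (ENSMUSG00000028883) at 13125414 to 13602565 and Sema3c (ENSMUSG00000028780) at 17574281 to 17730268. Together with Sema3e, they make up 4 class 3 genes within 5.35 Mb. Nrp2 (62703285 to 62818695) and Plxna2 (194618218 to 194816869) are on chromosome 1, Plxna4 (32144268 to 32588192) and Plxnd1 (115954811 to 115995005) on chromosome 6, and Nrp1 (128358604 to 128503363) on chromosome 8. Exons of other genes covered under 1% of the exonic bases of any of these 8 genes, namely 0.818% in Nrp1 and 0.78% in Plxna4.

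RefSeq start regions on GRCm38.p6, the same build, were matched for 7 of the 8 genes, all except Plxna4. Their 300-base windows ran from 41.3% G or C for Sema3a and 49.7% for Sema3d to 75.7% for Sema3c, against a median of 52.7% over 32851 windows. The STAT motif TTCNNNGAA, searched on both strands, was in 0 of the 7 windows and in 8.30% of all windows. The AP-1 motif TGANTCA and the C/EBP motif TTGCNNAA were in 0 of the 7 as well, against 7.81% and 10.8% of all. A STAT motif with a spacer of 4 bases, TTCNNNNGAA, was in 1 of the 7 and in 6.95% of all windows. These matches describe letters and not binding sites. The 250 bases before the RefSeq start are shown for Sema3a and Sema3d, the ligands that differed between mLIF and mOSM in opposite directions. Capitals mark the motif with the 4-base spacer, whose first base is at position −223 from the start.
Sema3a, chr5:13396534-13396783, plus strand: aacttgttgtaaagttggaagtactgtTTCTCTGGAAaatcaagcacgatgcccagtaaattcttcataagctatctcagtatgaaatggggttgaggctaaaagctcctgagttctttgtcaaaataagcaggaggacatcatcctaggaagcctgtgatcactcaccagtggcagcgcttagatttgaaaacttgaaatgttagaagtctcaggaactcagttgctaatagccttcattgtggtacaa
Sema3d, chr5:12382916-12383165, plus strand: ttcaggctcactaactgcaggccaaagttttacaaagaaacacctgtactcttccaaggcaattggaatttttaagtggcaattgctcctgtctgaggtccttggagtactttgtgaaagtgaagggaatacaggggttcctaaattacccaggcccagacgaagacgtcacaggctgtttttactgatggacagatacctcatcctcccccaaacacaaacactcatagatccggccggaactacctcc
The RefSeq start of Sema3a, at base 13396784, lies inside the longer gene of the deposited table, and which start was used in these cells was not measured. The RefSeq starts of Sema3c, Nrp1, Nrp2 and Plxna2 lie inside the genes of the deposited table as well. For Sema3c, Nrp2 and Plxna2 the 250 bases before the start overlap an annotated exon, so that these windows are not only sequence before the gene.

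Per kilobase of exon, Nrp1 and Sema3c were the most abundant of these transcripts. In PBS-treated cardiomyocytes Nrp1 had 90.3 ± 10.5 (SD, n = 3) normalized counts per kilobase and Sema3c 82.9 ± 7.95 (SD, n = 3), with overlapping libraries. Plxnd1, a plexin of the vasculature, followed at 46.2 ± 1.62 (SD, n = 3) and Nrp2 at 24.5 ± 1.40 (SD, n = 3). The class A plexins Plxna2 and Plxna4 were at 14.0 ± 0.821 (SD, n = 3) and 9.45 ± 2.08 (SD, n = 3). Sema3d and Sema3a stood far below, at 2.40 ± 0.470 (SD, n = 3) and 1.35 ± 0.423 (SD, n = 3) per kilobase. In the conditions with a cytokine, Nrp1 led Sema3c without overlap of libraries. The order of the last pair per kilobase turned over. Sema3d lay above Sema3a in PBS and mLIF and below it in mOSM and hlOSM, each time without overlap of the 3 libraries. In PBS and mLIF this order depends on the exonic lengths, 13868 bases for Sema3a and 8595 for Sema3d. Before division by length their libraries overlapped in PBS and shared the value 16 in mLIF.

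Sema3c was lower with every cytokine and by nearly the same amount. It had 541, 581 and 653 normalized counts in PBS, 371, 404 and 358 in mLIF, 387, 330 and 391 in mOSM, and 360, 356 and 342 in hlOSM. All 9 libraries with a cytokine therefore lay below all 3 PBS libraries, while the cytokines overlapped one another. The log2 fold change against PBS was −0.64 in mLIF, −0.68 in mOSM and −0.74 in hlOSM (standard error 0.07), or 0.640, 0.625 and 0.598 times the PBS level. Adjusted p-values below come from the fit without replicate numbers. The deposited values hold hardly any difference between replicate numbers, and in simulated data made that way this fit gave too many small p-values, which a block for replicate number corrected, so that the p-values may be too small. Tested directly, mOSM differed from mLIF by −0.03 on the log2 scale (95% interval −0.19 to 0.12, adjusted p = 0.832 from limma) and hlOSM from mLIF by −0.10 (−0.25 to 0.06, adjusted p = 0.435). Summed normalized counts of 8 cardiomyocyte markers, which include Myh6, Tnnt2 and Ttn, were 48586 to 50503 in PBS, 42190 to 44057 in mLIF, 34177 to 38325 in mOSM and 35012 to 37521 in hlOSM. The sum is carried by Ttn, with means of 32920, 28730, 22910 and 23560, and the markers did not move alike. Between mLIF, mOSM and hlOSM, the means of Tnni3 (507, 522 and 511) and Mb (781, 787 and 783) were nearly level and the libraries of Myh6 overlapped. Ryr2 (means of 5358, 4881 and 4807) and Pln (1388, 1125 and 1108) were lower with mOSM and hlOSM than with mLIF, without overlap. Against PBS, 6 of the 8 markers fell with mLIF, 7 with mOSM and 7 with hlOSM, where 4.44%, 15.8% and 19.8% of all genes fell. The part of these markers in the Sema3c values was not tested.

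**Figure D1:**
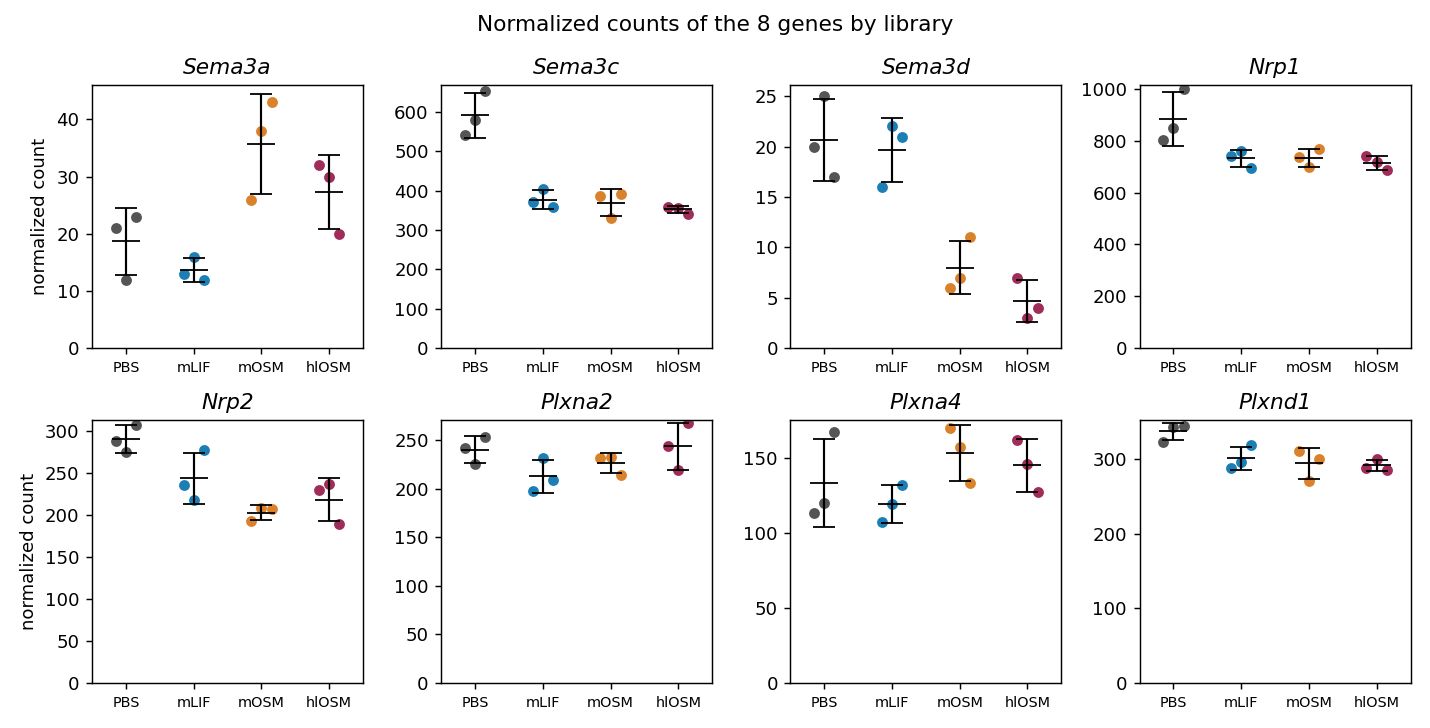
Normalized counts (vertical axes, from 0) of the 8 genes in PBS, mLIF, mOSM and hlOSM. Points are the 3 libraries of a condition, the horizontal mark is their mean and bars are ± SD. Sema3c is between 541 and 653 in PBS and between 330 and 404 in all libraries with a cytokine, whereas Sema3d is low only in mOSM and hlOSM.

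Sema3d, a ligand that guides endothelial and neural crest cells, followed a different course. Its normalized counts were 20, 25 and 17 in PBS, 16, 22 and 21 in mLIF, 6, 7 and 11 in mOSM, and 7, 3 and 4 in hlOSM. The mLIF libraries overlapped PBS, and those of mOSM and hlOSM lay below both. Relative to PBS, the log2 fold change was −0.06 in mLIF (standard error 0.30), −1.29 in mOSM and −1.98 in hlOSM. Between cytokines, Sema3d was lower with mOSM than with mLIF by 1.23 on the log2 scale (log2 difference −1.23, 95% interval −1.84 to −0.61, adjusted p = 0.00728 from limma, 0.0248 under the block). With hlOSM it was lower than with mLIF by 1.92 (log2 difference −1.92, 95% interval −2.53 to −1.30, adjusted p = 7.15e-05 from limma, 0.000374 under the block). A value of at least 10 was reached in 7 libraries, 6 of them in PBS and mLIF, so that Sema3d passed the filter on low values through the conditions in which it is high. With no such filter the adjusted p was 0.0162 for mOSM and 0.000195 for hlOSM against mLIF. Its fold depends on the added constant of 1, and with 5 in its place the log2 fold change of hlOSM against PBS was −1.42.

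Sema3a, which repels axons and collapses growth cones, went the other way. It had 21, 12 and 23 normalized counts in PBS, 13, 16 and 12 in mLIF, 26, 38 and 43 in mOSM, and 32, 30 and 20 in hlOSM. The mOSM libraries were all above PBS, those of hlOSM overlapped PBS, and mLIF held the lowest mean. Relative to PBS, Sema3a had a log2 fold change of −0.38 in mLIF, 0.92 in mOSM and 0.55 in hlOSM (standard error 0.25). Sema3a was higher with mOSM than with mLIF by 1.30 on the log2 scale (95% interval 0.79 to 1.81, adjusted p = 0.000826 from limma, 0.00262 under the block), in all 3 libraries. It was also higher with hlOSM than with mLIF, by 0.93 (95% interval 0.42 to 1.44, adjusted p = 0.011 from limma, 0.0273 under the block). Without replicate 1 of hlOSM the latter difference was 0.81 and no longer passed (adjusted p = 0.0609 from limma).

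The co-receptors were lower in mean with each cytokine. Nrp1, the neuropilin that pairs with Sema3a and with VEGF-A, had 804, 848 and 1000 normalized counts in PBS, 743, 759 and 696 in mLIF, 739, 698 and 768 in mOSM, and 740, 719 and 686 in hlOSM. No library with a cytokine reached the lowest PBS library, and the cytokines overlapped. Its log2 fold changes were −0.27, −0.26 and −0.30 with mLIF, mOSM and hlOSM (standard error 0.07), and without replicate 3 of PBS, which had the value of 1000, they were −0.17, −0.17 and −0.21. The direct difference of mOSM from mLIF in Nrp1 was 0.00 (95% interval −0.14 to 0.14, adjusted p = 0.981 from limma). Nrp2, a co-receptor for Sema3c and for the lymphatic VEGF-C, had 288, 274 and 307 in PBS, 235, 218 and 277 in mLIF, 192, 208 and 207 in mOSM, and 229, 236 and 189 in hlOSM. Here 1 mLIF library reached into the PBS range and the libraries of mOSM and hlOSM did not. Log2 fold changes of Nrp2 were −0.26, −0.51 and −0.41 (standard error 0.09). Nrp2 was lower in all mOSM than in all mLIF libraries, with a log2 difference of −0.26 (95% interval −0.44 to −0.07), yet it did not pass over all genes (adjusted p = 0.065 from limma). Endothelial markers, 8 in the list, did not follow Nrp1 in their sum. Summed, they had 831 to 886 normalized counts in PBS, 838 to 905 in mLIF, 1019 to 1231 in mOSM and 1057 to 1144 in hlOSM. These markers did not move alike. Of the 8, 1 fell with mLIF, and 5 rose with mOSM and 5 with hlOSM, where 4.44%, 15.4% and 18.2% of all genes did. Pecam1 had means of 257, 212, 276 and 286, lower with mLIF than PBS without overlap. Cldn5 was lower in mean with each cytokine. Mural cell markers, 8 as well, summed to 1842 to 2158, 1664 to 1720, 1352 to 1448 and 1227 to 1317, lower without overlap in each cytokine as Nrp1 was. The largest part of that sum was Abcc9, with means of 933, 786, 685 and 642. Which cells held its RNA was not measured, so that the sum cannot be taken as mural cells alone. Of the 8, 1 fell with mLIF, 6 with mOSM and 7 with hlOSM, where 4.44%, 15.8% and 19.8% of all genes fell. Pdgfrb was nearly level with mLIF (means of 213 and 209), and Kcnj8 was higher in mean with each cytokine. Both lists were detected in every condition, their part in these values was not tested, and in bulk RNA fewer cells of a type and less RNA per cell cannot be told apart.

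Among the plexins, Plxnd1 was slightly lower with each cytokine, whereas Plxna2 and Plxna4 overlapped PBS throughout. Plxnd1 had 324, 344 and 345 normalized counts in PBS, 288, 297 and 319 in mLIF, 312, 271 and 301 in mOSM, and 289, 301 and 286 in hlOSM. The PBS libraries stayed above all others, with log2 fold changes of −0.16, −0.20 and −0.21 (standard error 0.07), the smallest of the changes without overlap among these 8 genes. Plxna2, a receptor for Sema3a and for transmembrane class 6 semaphorins, had 242, 225 and 253 in PBS, 198, 231 and 209 in mLIF, 231, 233 and 214 in mOSM, and 244, 219 and 267 in hlOSM. Plxna4, another receptor for Sema3a, had 113, 120 and 167 in PBS, 107, 119 and 132 in mLIF, 170, 157 and 133 in mOSM, and 162, 146 and 127 in hlOSM. Its log2 fold changes of −0.14, 0.21 and 0.13 were of the size of their standard error of 0.13, and the first turned to 0.03 without replicate 3 of PBS. Plxna4 was higher in all mOSM than in all mLIF libraries (log2 difference 0.36, 95% interval 0.09 to 0.62), but not past the threshold (adjusted p = 0.0733 from limma).

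**Figure D2:**
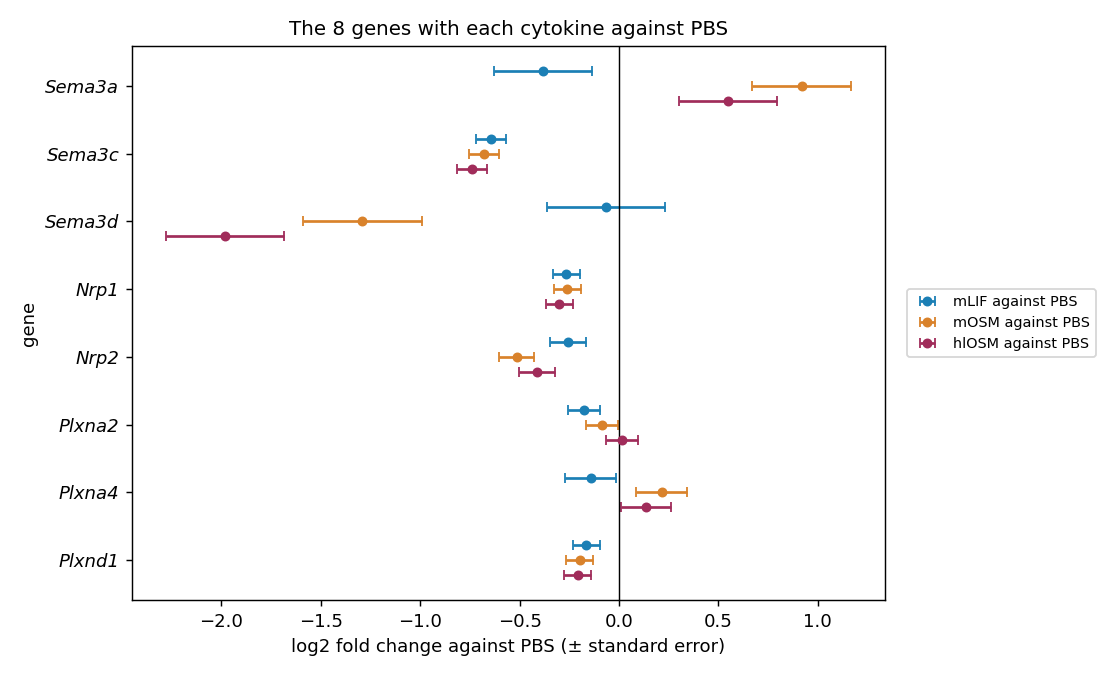
Log2 fold change against PBS (horizontal axis) of the 8 genes with mLIF, mOSM and hlOSM. Points are estimates from the limma fit and bars are ± standard error. Sema3c has 3 nearly equal values between −0.74 and −0.64, and Sema3a and Sema3d move apart with mOSM and hlOSM.

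In the comparisons with PBS from which the set was chosen, and counted by libraries without overlap, 3 of the 8 genes were lower and 0 higher with mLIF (15.6% and 14.7% of the 13184 genes tested), 5 were lower and 1 higher with mOSM (19.9% and 20.2%), and 5 were lower and 0 higher with hlOSM (24.3% and 22.7%). Median log2 fold changes of the 8 were −0.22, −0.23 and −0.25, where those of all genes tested were 0.00, 0.00 and −0.01. These comparisons share the PBS libraries and nothing is read from the counts.

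Between cytokines, Sema3a passed upward for mOSM against mLIF, where 11.8% of all genes tested passed, and for hlOSM against mLIF, where 16.6% did. Sema3d passed downward in both, with the reservation that the filter admitted it through the mLIF and PBS libraries. The other 6 genes did not pass in either comparison. Sema3a and Sema3d also passed in both with the replicate number as a block, where 8.81% and 12.2% of all genes passed. Both comparisons use the same mLIF libraries. For hlOSM against mOSM, limma put 0 of the 8 past the threshold, where 0.106% of all genes passed (0.0152% with the block), and 1 gene, Sema3d, had an unadjusted p under 0.05, as 7.49% of all genes did. Sema3d was lower with hlOSM than with mOSM by 0.69 on the log2 scale, with a wide 95% interval (log2 difference −0.69, −1.31 to −0.07, adjusted p = 0.606). For Sema3c, Nrp1 and Plxnd1 the intervals of all 3 differences between cytokines stayed between −0.25 and 0.14 on the log2 scale.

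**Figure D3:**
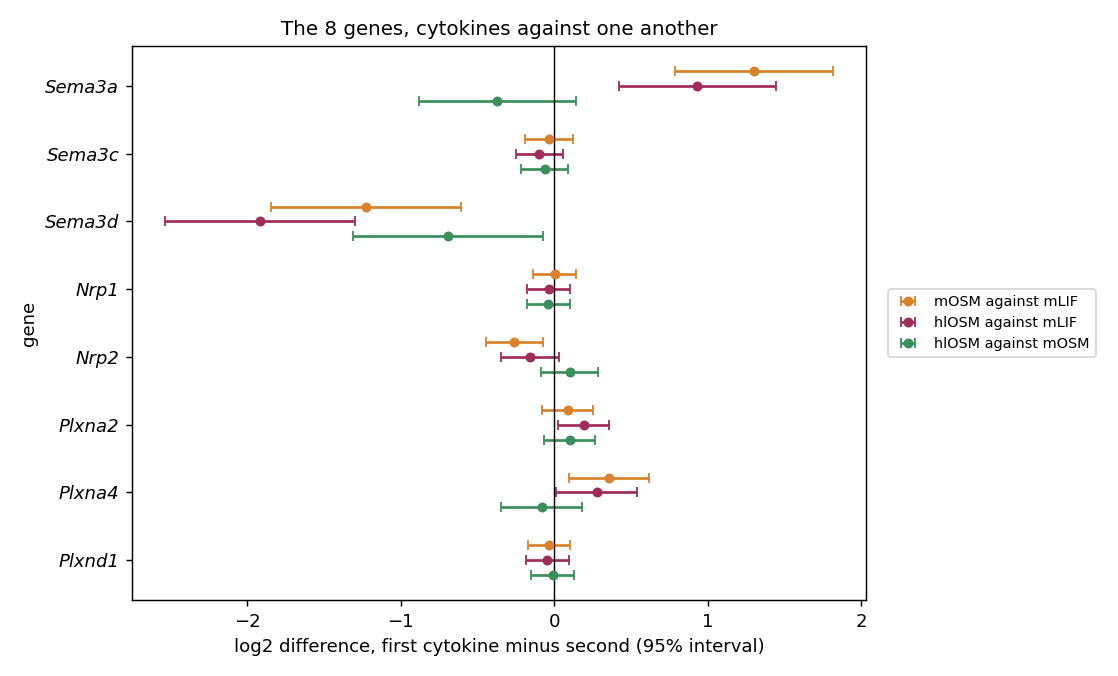
Log2 difference between 2 cytokines (horizontal axis, first minus second) of the 8 genes. Points are estimates from the limma fit and bars are 95% intervals. The intervals of Sema3a lie above 0 and those of Sema3d below 0 for mOSM against mLIF and for hlOSM against mLIF, and the intervals of Sema3c, Nrp1 and Plxnd1 all span 0.

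The other semaphorins moved mostly upward with mOSM and hlOSM. Of 17 further semaphorin genes, 11 passed the filter, and 8 of the 11 rose and 0 fell with either cytokine, where 15.4% of all genes tested rose with mOSM and 18.2% with hlOSM. All 11 would also have passed the filter from the PBS and mLIF libraries alone. With mLIF, 0 of the 11 passed by limma and 1 had an unadjusted p under 0.05. Their median log2 fold change was 0.23 in mLIF, 0.80 in mOSM and 0.82 in hlOSM, where the medians over all genes tested were 0.00, 0.00 and −0.01. Sema6a, a transmembrane ligand of class A plexins, went from 65, 57 and 42 normalized counts in PBS and 50, 65 and 78 in mLIF to 112, 101 and 122 in mOSM and 115, 110 and 120 in hlOSM. This was a rise of 1.04 on the log2 scale with mOSM and of 1.08 with hlOSM (standard error 0.15, adjusted p = 1.17e-05 and 4.89e-06 from limma). Sema7a, a membrane-anchored ligand of Plxnc1 and integrins, rose with the same cytokines by 0.84 and 0.82 (standard error 0.11, adjusted p = 3.75e-06 and 3.60e-06 from limma). Sema3e, which binds Plxnd1 without a neuropilin and lies between Sema3a and Sema3c on chromosome 5, was named after its values were seen. It had 8, 13 and 10 in PBS, 13, 9 and 9 in mLIF, 33, 31 and 44 in mOSM, and 38, 35 and 35 in hlOSM, and it reached 10 in 9 libraries, among them all 6 of mOSM and hlOSM. Sema3e thus rose by 1.71 on the log2 scale with mOSM and by 1.73 with hlOSM (standard error 0.22, adjusted p = 2.53e-06 and 1.68e-06 from limma), and its log2 fold change with mLIF was 0.00 (adjusted p = 0.993). Sema6b and Sema4c, likewise chosen after their values were seen, rose by 1.66 and 1.52 with mOSM (adjusted p = 1.08e-08 and 6.79e-07 from limma), and 7.27% of the exonic bases of Sema4c lie under exons of a gene on the other strand. When mOSM and mLIF were compared directly, 7 of the 11 semaphorins were higher with mOSM and 0 lower, where 6.05% of all genes were higher. The remaining 6 semaphorins did not reach a normalized count of 10 in 3 libraries.

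Of 6 other plexins, 5 passed the filter. Plxnc1, also named after its values were seen, rose from 32, 36 and 33 normalized counts in PBS to 57, 66 and 62 in mOSM and 64, 56 and 56 in hlOSM (log2 fold changes 0.85 and 0.78, adjusted p = 3.91e-05 and 8.37e-05 from limma). Plxnb1, a receptor for Sema4d, fell with hlOSM by 0.31 on the log2 scale (adjusted p = 0.021 from limma), a call that is lost with the replicate number as a block (adjusted p = 0.0555) and without replicate 2 of PBS (adjusted p = 0.057) or of hlOSM (adjusted p = 0.0991). Plxnb2, chosen after its values were seen and with a log2 fold change of 0.11 with mOSM, passed in neither OSM comparison but did so in both after quantile normalization (adjusted p = 0.000615 and 0.00507 from limma).

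**Figure D4:**
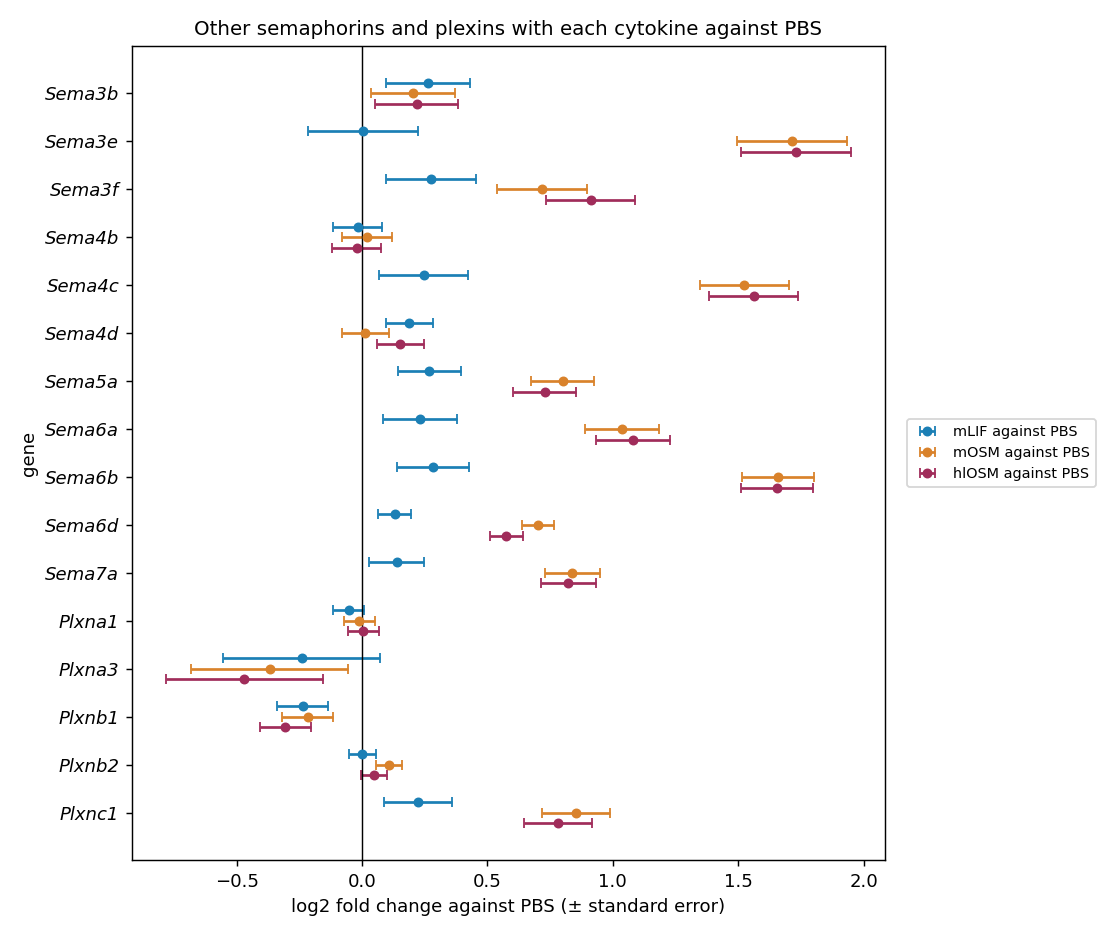
Log2 fold change against PBS (horizontal axis) of the 11 other semaphorins and 5 other plexins that passed the filter on low values. Points are limma estimates with mLIF, mOSM and hlOSM, and bars are ± standard error. Sema3e, Sema4c and Sema6b have values above 1.5 with mOSM and hlOSM and below 0.3 with mLIF.

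Over all 82 genes of the pathway list outside the 8, semaphorins included, 69 were tested. With mLIF 6 of the 69 rose and 4 fell (8.70% and 5.80%), near the 5.47% and 4.44% of all genes. With mOSM 22 rose and 8 fell (31.9% and 11.6%), against 15.4% and 15.8% of all genes, and the 8 other semaphorins are part of the 22. With hlOSM 26 rose and 12 fell (37.7% and 17.4%), against 18.2% and 19.8% of all genes. Both counts of raised genes include Chl1, which passed the filter only through mOSM and hlOSM libraries. Of the 68 genes that would have passed it from the PBS and mLIF libraries alone, 21 rose with mOSM and 25 with hlOSM (30.9% and 36.8%). The mLIF count of raised genes was 2 without replicate 3 of PBS and 1 without replicate 3 of mLIF. Of the intracellular effectors, 31 of 35 were tested, with 5 raised and 2 lowered in mLIF, 7 and 5 in mOSM, and 11 and 5 in hlOSM. The share that fell, 16.1% with mOSM and with hlOSM, was near or below that of all genes, and the share that rose was 16.1%, 22.6% and 35.5% with mLIF, mOSM and hlOSM. Ssh1, a phosphatase that activates cofilin, rose with all 3 cytokines, by log2 values of 0.70, 1.08 and 1.18 in the order mLIF, mOSM and hlOSM (adjusted p = 0.000833, 3.83e-07 and 8.19e-08 from limma). Pak1, a kinase downstream of Rac, rose by 0.56, 0.94 and 0.76, the first no longer past the threshold without replicate 3 of mLIF (adjusted p = 0.0624 from limma). Rnd1 and Rnd3, small GTPases that bind plexins, went apart. Rnd1 had 199, 184 and 141 normalized counts in PBS and 300, 288 and 377 in hlOSM, and Rnd3 691, 653 and 728 in PBS and 461, 493 and 459 in hlOSM, with log2 fold changes of 0.88 and −0.55 (adjusted p = 8.93e-07 and 4.32e-07 from limma). Dpysl2, which encodes a collapsin response mediator of Sema3a signaling, fell with mOSM and hlOSM (log2 fold changes −0.43 and −0.57, adjusted p = 0.000441 and 1.10e-05 from limma).

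Among semaphorin-processing proteases, Pcsk6, a proprotein convertase of the furin family, fell from 129, 116 and 198 normalized counts in PBS to 31, 36 and 28 in mOSM and 42, 43 and 37 in hlOSM. This was a log2 fold change of −2.15 and −1.80, respectively (standard error 0.15, adjusted p = 4.03e-10 and 4.19e-09 from limma). Adamts1, a secreted metalloprotease, fell with mLIF and hlOSM (log2 fold changes −0.34 and −0.51, adjusted p = 0.00945 and 2.43e-05 from limma), the mLIF call lost without replicate 1 of PBS (adjusted p = 0.0559). Furin rose by 0.19 with mOSM (adjusted p = 0.0328 from limma), a call lost with the replicate number as a block (adjusted p = 0.0551) and in 4 of the 6 fits without a library compared. Of these 6 proteases, 0 rose and 1 fell in mLIF, 1 rose and 1 fell in mOSM, and 0 rose and 3 fell in hlOSM. With mOSM this is 16.7% in each direction, near the share of all genes. Vegfa, whose product binds Nrp1, fell with all 3 cytokines, by 0.42, 0.50 and 0.61 on the log2 scale (adjusted p = 0.00378, 0.000114 and 7.93e-06 from limma). The VEGF receptors Flt1 and Flt4 rose with mOSM (log2 fold changes 0.67 and 0.51, adjusted p = 6.43e-06 and 0.00356 from limma). The VEGF receptor Kdr, named after its values were seen, rose by 0.30 with mOSM and by 0.24 with hlOSM (adjusted p = 0.000264 and 0.00186 from limma). Of the 8 endothelial markers, 5 rose and 0 fell with mOSM, where 15.4% of all genes rose. Their part in the receptor values was not tested. With hlOSM Flt1 rose by 0.64 (adjusted p = 9.61e-06 from limma), and Flt4 by 0.37 (adjusted p = 0.0254), which is lost with the block (adjusted p = 0.0652) and without replicate 1 or 2 of PBS or replicate 1 or 3 of hlOSM. Among the adhesion partners, Chl1 passed the filter only through mOSM and hlOSM libraries, in which it is high, and its rise with hlOSM is lost with the block (adjusted p = 0.0548). Of the other 7 tested, 1 rose in mLIF, 1 in mOSM and 2 in hlOSM, and 0 fell. The shares that rose were 14.3%, 14.3% and 28.6%, where 5.47%, 15.4% and 18.2% of all genes did. Cd44, a hyaluronan receptor, rose by 0.41, 0.91 and 1.01 on the log2 scale (adjusted p = 0.0118, 3.00e-07 and 5.13e-08 from limma), the mLIF call lost without replicate 3 of PBS (adjusted p = 0.0858) or of mLIF (adjusted p = 0.0868). Itgb1, the integrin beta 1 chain, rose with hlOSM by 0.20 (adjusted p = 0.00878 from limma, and 0.0536 without replicate 2 of PBS).

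The genes whose values across the 12 libraries were most like those of Sema3c, among 6625 others whose mean was 100 or more, were Magi3, Ncor1, Irx3, Cip2a and P4ha1. Pearson's r of the log2 values with Sema3c was 0.98 for Magi3 and 0.96 for P4ha1, as a description over libraries that share their conditions. Magi3 had means of 1063, 765, 696 and 662 normalized counts in PBS, mLIF, mOSM and hlOSM, and Irx3 168, 108, 103 and 98.7. An r above 0.9 was found for 128 of the 6625 genes.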

How the data were processed

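RNA of 12 cardiomyocyte samples was sequenced, and the sample titles gave the condition and replicate number of each library. Per the paper's methods and the submitters' notes, the authors aligned trimmed reads to mm10 with STAR 2.7.7a and counted reads of single genes with featureCounts 1.6.5. The values deposited by the authors are scores on a normalized count scale, rounded to whole numbers, and the normalization is not given in the sources used here. Such values hold no read depth and were given no count model. Tests used limma 3.58.1 in R 4.3.3 (lmFit, eBayes with trend, two-sided) on log2(normalized count + 1), with all 4 conditions in 1 fit, over 13184 genes with at least 10 in at least 3 libraries, and a Benjamini-Hochberg adjusted p under 0.05. Adjustment was over all genes tested. Fold changes are on that log2 scale and understate changes of low genes. Exonic lengths are from GENCODE M21, in which each of the 8 genes had the start and end of the table. Of the variance within conditions in the deposited values, 1.70% lay between replicate numbers. Whether a step before deposit removed such differences is not stated in the sources used here. Tested on simulated data without differences between replicate numbers, the fit recovered the changes but gave too many small p-values among unchanged genes, which the replicate number as a block corrected. The 8 genes and the pathway and marker lists were chosen with earlier results of these data known. Named pathway genes are, per list and cytokine against PBS, up to 2 raised and 2 lowered with the largest change past the threshold and a mean of at least 50, and genes named outside this rule are said to be so. Alternatives were other added constants, filters, scalings, the replicate number as a block, a fit of 6 libraries, and each library left out.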

Additional observations from a re-analysis of the deposited data

How the results depend on the processing

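Of 2675 values of single genes under an alternative, 2633 kept their side of the threshold or stayed within 1 SD, 22 lost and 19 gained the call, 1 moved by more than 1 SD, and 0 called values changed sign. With a filter at 50, 0 of the 8 genes passed for mOSM against mLIF and 0 for hlOSM against mLIF, since Sema3a and Sema3d were then not tested. In a fit of only the 6 libraries compared, 4 passed for mOSM against mLIF, with Nrp2 (adjusted p = 0.039 from limma) and Plxna4 (adjusted p = 0.0176) added. With each library left out in turn, the 8 genes gave 2 to 3 calls for mOSM against mLIF, 1 to 3 for hlOSM against mLIF and 0 for hlOSM against mOSM. The other pathway genes gave 1 to 7 raised and 3 to 6 lowered in mLIF, 19 to 23 and 6 to 11 in mOSM, and 19 to 28 and 9 to 13 in hlOSM. When the fit held the replicate number as a block, 2, 2 and 0 of the 8 genes passed in these comparisons of cytokines, and 5 and 3 pathway genes were raised and lowered in mLIF, 21 and 8 in mOSM, and 22 and 10 in hlOSM. Deviations of same-numbered libraries correlated at −0.406 to −0.151 and those of other pairs of conditions at 0.004 to 0.328, and the numbers were not treated as pairs. Removing differences between replicate numbers before deposit would itself give negative correlations, so that whether the numbers pair the libraries cannot be told. The values carry no read depth, and for Sema3a and Sema3d, at 3 to 43 normalized counts, counting error cannot be given.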

Other observations

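Markers of other cell types beside the genes above were detected in all conditions. Fibroblast markers, 8 in the list, summed to 2041 to 2276 normalized counts in PBS, 1900 to 2032 in mLIF, 2227 to 2629 in mOSM and 2114 to 2354 in hlOSM. With mOSM 2 of these 8 rose and 4 fell, where 15.4% of all genes rose and 15.8% fell. With hlOSM 3 rose and 5 fell, where 18.2% and 19.8% of all genes did. The sum hides this split. Col3a1 had means of 399, 357, 850 and 824 and Dcn of 222, 238, 474 and 441 in PBS, mLIF, mOSM and hlOSM. Pdgfra had 613, 601, 428 and 408, and Col1a2 485, 397, 260 and 244. Of the macrophage and leukocyte markers, 6 of 8 were tested, and the list summed to 304 to 328, 286 to 322, 351 to 388 and 324 to 392. These markers did not move alike. Cd68 had means of 53.7, 81.3, 125 and 132, whereas Lyz2 had 176, 154, 156 and 146 and Csf1r 28.7, 25.7, 30.3 and 28.3. Of the Schwann and neuronal list, 3 of 8 markers were tested, with sums of 105 to 115, 107 to 129, 116 to 131 and 109 to 112. The epicardial list, of which 2 of 8 markers were tested, summed to 283 to 329, 304 to 350, 445 to 615 and 432 to 491. Its tested markers went apart, since Aldh1a2 had means of 194, 204, 414 and 372 and Tbx18 of 95.7, 91.3, 71.3 and 71.7 in PBS, mLIF, mOSM and hlOSM.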
